A study of Mus musculus with 12 samples.

Results

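The genes described here are 35 antiviral interferon-stimulated genes, listed by symbol from the classical response to type I interferon. They were found on the arrays by matching the accession of each probe to a RefSeq gene table, and the list was made with earlier results of these data known. A probe was matched for 33 of the 35 genes. Mx1 and Mx2 were not analysed here. Oas3 was not tested, since its probe was well above background on only 2 arrays. The other 32 genes were tested, among 29778 genes and unnamed features in all, and each of the 32 was well above background on all 12 arrays.

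Total RNA from the apex of the heart of 15-week-old male mice on the C57BL/6J background was hybridised to 12 single-colour arrays, 3 in each of 4 groups. Every group carried 1 wild-type Nkx2-5 allele, written as /+ in the genotype, beside 1 knock-in allele. Nkx2-5 encodes a homeodomain transcription factor of cardiac muscle. In the control/+ line, isoleucine at the altered position was replaced by isoleucine, which leaves the protein wild type. In I183M/+ and I183P/+ the same isoleucine was replaced by methionine or proline, and delta/+ carries a deletion of the gene. Each group is thus a heterozygous model in which the remaining allele is intact. Whether the arrays of a group stand for separate mice is not stated in the labels, and p-values here measure only the spread between these samples, which may be technical. With 3 arrays against 3, the smallest 2-sided exact permutation p is 0.1, so single genes were tested with limma across all features.

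Type I and type III interferons bind receptors on the cell surface that activate the kinases Jak1 and Tyk2. These lead to the assembly of ISGF3, a complex that holds Stat2 and Irf9 and binds a promoter element called ISRE (interferon-stimulated response element) and turns on a shared antiviral programme. Interferon-gamma acts mainly through a different element, GAS (gamma-activated site), and the sets of genes overlap. In a heart without infection many of these genes are transcribed at a low basal level by several cell types, among them endothelial cells, fibroblasts and macrophages.

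The start sites of some of the genes whose windows hold ISRE or GAS letters are shown first, because interferon acts through elements near such sites. Genes whose windows lack these letters are not shown. RefSeq windows (assembly GRCm38.p6, 250 bases before to 50 after a start) were given for 24 of the 35 genes. The core letters of an ISRE, GAAA, then any 2 bases, then GAAA, were searched on both strands, overlapping matches included. They were present in 11 of these 24 genes (45.8%), against 3.99% of all 27025 genes with such windows. The GAS letters TTCNNNGAA were present in 6 of the 24 genes (25.0%), against 9.55% of all genes. A match is a description of the letters, and binding was not measured. The sequences below are the 250 bases before the start, 5′ to 3′ on the strand of the gene, with capitals marking ISRE letters on either strand, except in Irf1, where they mark GAS letters. Isg15 lies at chr4:156200819-156201068, minus strand, and its 3 overlapping matches form 1 block. Ifit1 (chr19:34640639-34640888, plus strand) and Ifit3 (chr19:34583279-34583528, plus strand) hold 2 separate matches each. Rsad2 (chr12:26456453-26456702, minus strand) holds 1 match, Bst2 (chr8:71537473-71537722, minus strand) holds 2 overlapping matches, and Irf1 (chr11:53769764-53770013, plus strand) holds no ISRE letters in the window.
Isg15: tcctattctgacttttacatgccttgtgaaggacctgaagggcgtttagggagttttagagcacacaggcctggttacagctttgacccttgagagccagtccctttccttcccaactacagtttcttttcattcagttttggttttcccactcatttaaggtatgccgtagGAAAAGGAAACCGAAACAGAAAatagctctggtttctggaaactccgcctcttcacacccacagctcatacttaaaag
Ifit1: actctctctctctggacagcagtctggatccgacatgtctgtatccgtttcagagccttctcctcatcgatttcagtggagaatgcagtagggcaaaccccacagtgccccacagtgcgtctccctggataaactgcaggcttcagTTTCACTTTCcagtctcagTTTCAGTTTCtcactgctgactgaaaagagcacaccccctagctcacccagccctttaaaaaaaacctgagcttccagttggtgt
Ifit3: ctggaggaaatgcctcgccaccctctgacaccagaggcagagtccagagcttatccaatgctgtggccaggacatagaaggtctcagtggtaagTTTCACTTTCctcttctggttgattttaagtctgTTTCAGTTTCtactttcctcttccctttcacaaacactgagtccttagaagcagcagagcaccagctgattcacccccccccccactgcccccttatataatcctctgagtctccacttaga
Rsad2: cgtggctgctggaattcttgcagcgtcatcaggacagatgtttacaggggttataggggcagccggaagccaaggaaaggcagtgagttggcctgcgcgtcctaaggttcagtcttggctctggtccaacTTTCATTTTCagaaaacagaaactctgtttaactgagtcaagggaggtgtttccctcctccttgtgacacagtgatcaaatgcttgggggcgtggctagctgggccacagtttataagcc
Bst2: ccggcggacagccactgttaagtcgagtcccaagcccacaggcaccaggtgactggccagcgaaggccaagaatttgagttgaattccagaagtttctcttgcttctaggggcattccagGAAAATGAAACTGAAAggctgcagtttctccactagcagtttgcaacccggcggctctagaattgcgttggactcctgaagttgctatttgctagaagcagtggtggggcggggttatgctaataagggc
Irf1: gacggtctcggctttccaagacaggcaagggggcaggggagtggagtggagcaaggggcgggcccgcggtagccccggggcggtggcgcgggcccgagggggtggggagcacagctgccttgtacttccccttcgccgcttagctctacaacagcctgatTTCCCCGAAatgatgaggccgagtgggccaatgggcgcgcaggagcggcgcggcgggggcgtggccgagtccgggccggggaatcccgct

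The slides and 1 control array bear on every comparison below. The arrays lay on 2 slides: slide 1 held the 3 control, the 3 I183M and 2 of the 3 I183P arrays, and slide 2 held I183P replicate 3 and the 3 delta arrays. Delta and control, and delta and I183M, therefore share no slide, and their differences cannot be told apart from the slide except through the I183P arrays. Control replicate 1 stood apart, with 99.1% of spots well above background against 51.2% to 75.2% on the other 11 arrays, and a median processed intensity of 602 against 34.8 to 92.5. The probe for Nkx2-5 read 4.04 ± 0.80 (SD, n = 3) in control, 4.57 ± 0.05 in I183M, 4.60 ± 0.12 in I183P and 3.83 ± 0.09 in delta. On each delta array it lay below every I183M and I183P array, while control replicate 1 (3.11) read lowest of all. The 9 cardiomyocyte markers were well above background on every array. Levels here are log2 processed intensity minus the 75th percentile of the array, and differences are log2 folds.

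Across the 32 genes, the I183P and delta hearts read higher than the I183M hearts by a small amount, and no gene passed the test. The deviation of each gene from its own mean over 12 arrays was taken, and its median over the 32 genes is given for each array. That median was -0.72, -0.00 and -0.08 on the control arrays, -0.11, -0.12 and -0.13 in I183M, 0.15, 0.09 and 0.32 in I183P, and 0.29, 0.05 and 0.12 in delta. All 6 I183P and delta arrays lay above all 6 control and I183M arrays, and control replicate 1 lay far below the rest. Of the 32 genes, 25, 22 and 30 were above their own mean on the I183P arrays and 29, 21 and 24 on the delta arrays, against 6, 6 and 5 on the I183M arrays. Those means include control replicate 1, which read lowest for 24 of the 32 genes. The matching shares of all features are not given here. Over all features the median deviation was 0.01 to 0.13 in I183M, -0.08 to -0.03 in I183P and -0.02 to 0.18 in delta. It was 0.18 on control replicate 1. In whole tissue, a change in RNA per cell and a change in the number of cells of a type cannot be told apart.

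**Figure D1:**
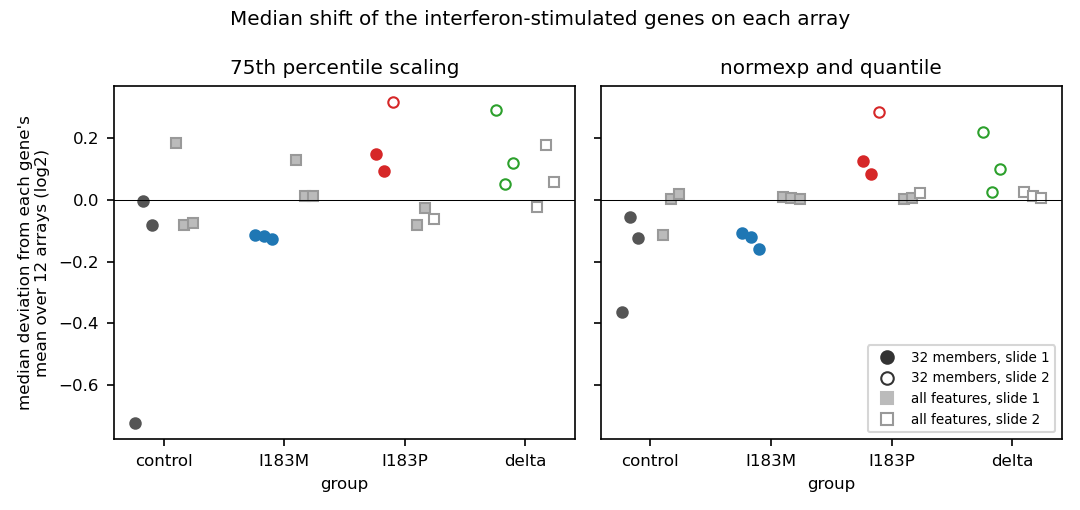
Each circle is the median, over the 32 interferon-stimulated genes, of the log2 deviation from the gene's mean over 12 arrays, and each square is the same over all 29778 features, by group, under 2 scalings of the arrays (left and right). Open symbols are arrays of slide 2. The I183P and delta circles lie between 0.05 and 0.32 on the left, the I183M circles between -0.13 and -0.11, and control replicate 1 at -0.72.

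I183P was set against I183M first, since both are single amino acid changes at the same position and the 2 groups share slide 1. The median log2 fold over the 32 genes was 0.30, with 31 genes above 0 (35% of all features were above 0). Over all features the median was -0.10. The 3 I183P arrays lay above the 3 I183M arrays without overlap for 19 of the 32 genes and below them for none, where 5.75% of all features lay higher and 18.7% lower without overlap. Among the 19421 features that, like these genes, were well above background on all 12 arrays, 8.14% lay higher without overlap and the median fold was -0.02. No gene had a limma adjusted p under 0.05 (0% of features did), the smallest being 1.00. At an unadjusted p under 0.05, 3 genes lay higher (0.675% of all features), and none lower (0.594%). These were Zbp1, Ifit3 and Rsad2. The 2 I183P arrays of slide 1 alone gave a median of 0.22, with 30 genes above 0, 19 higher than all I183M arrays and 2 lower, where 10.5% and 27.0% of all features lay higher and lower. I183P replicate 3 on slide 2 read above the other I183P arrays for 24 of the 32 genes, by a median of 0.18, and 38.1% of all features did so. Centring each array on its median in place of its 75th percentile moved the median of all features to 0.46 and that of the 32 genes to 0.86. This change adds the same constant to every fold of a comparison. The gap of 0.40 between the genes and all features therefore could not change, and it is no check of the result.

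Delta was then set against I183M. The median over the 32 genes was 0.31 (all features, -0.02), 27 genes were above 0 (47.6% of all features), and 20 genes lay higher without overlap (11.3% of all features, and 15.4% of those well above background on all 12 arrays). None lay lower without overlap (6.25% of all features). None passed the limma test (0% of features), with a smallest adjusted p of 1.00. At an unadjusted p under 0.05, 6 genes lay higher (2.14% of features) and none lower (1.37%). With the slide as a block, which rests on the I183P arrays of both slides, the median was 0.073 and 19 genes were above 0. Without delta replicate 1 the median was 0.21.

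Between delta and I183P the genes showed no common direction: the median fold was -0.01 (all features, 0.14) and 14 of the 32 genes were above 0 (68.1% of all features). Of the 32 genes, 2 lay higher and 2 lower without overlap, against 13.8% and 5.94% of all features. On slide 2 alone, where I183P replicate 3 is the single I183P array, the median was -0.10 and 9 genes were above 0. No gene passed the test at a limma adjusted p under 0.05 (0% of features). At an unadjusted p under 0.05 there was none either, against 1.29% of features higher and 1.51% lower.

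The comparisons with the control line lean on control replicate 1. I183P against control gave a median of 0.45 (all features, -0.03), with 26 genes above 0 (48.8% of all features), 17 higher without overlap (7.51%) and none lower (5.25%). Delta against control gave 0.42 (all features, 0.05), with 27 above 0 (52.4%), 11 higher without overlap (10.8%) and none lower (3.07%). Features well above background on all 12 arrays had medians of 0.27 and 0.29 in these 2 comparisons, with 11.4% and 16.3% higher without overlap. Of those features 71.7% were above 0 in I183P and 72.7% in delta, against 81.25% and 84.4% of the genes. The excess of genes above 0 is thus smaller than beside all features. At an unadjusted p under 0.05, 8 genes lay higher in I183P (3.09% of features) and 10 in delta (5.03%), and none lay lower in either (2.11% and 2.41%). None passed the limma test (0.00336% and 0.0739% of features did), with smallest adjusted p of 0.564 and 0.375. Leaving out control replicate 1 brought the medians to 0.27 and 0.22, where all features had 0.01 and 0.16. In I183P, 27 genes (84.4%) were above 0, against 51.7% of features, and in delta 23 (71.9%), against 67.0%, a share near that of all features. Without overlap, 20 genes lay higher in I183P (14.5% of all features) and 14 in delta (22.8%), while 2 and 3 lay lower (4796 and 3411 of the 29778 features). With the slide as a block as well, the delta median was 0.012 and 16 genes were above 0. I183M against control had a median of 0.10 (all features, 0.11), 20 genes above 0 (56.7% of features) and no gene without overlap in either direction (2.62% of all features lay higher and 1.33% lower). Features well above background on all 12 arrays, as these genes were, had a higher median there, 0.27. Of those features 73.5% were above 0, against 62.5% of the genes. No gene passed the limma test (0% of features), nor an unadjusted p under 0.05 (0.695% higher and 0.782% lower). Without control replicate 1 the median of the genes turned to -0.07 (all features, 0.09), with 10 genes above 0 (64.0% of features). Then 1 gene lay higher in I183M without overlap and 6 lower, where 23.5% and 8.76% of all features did. These comparisons share the control arrays, as those above share the I183M arrays, so they do not bear on one another independently.

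**Figure D2:**
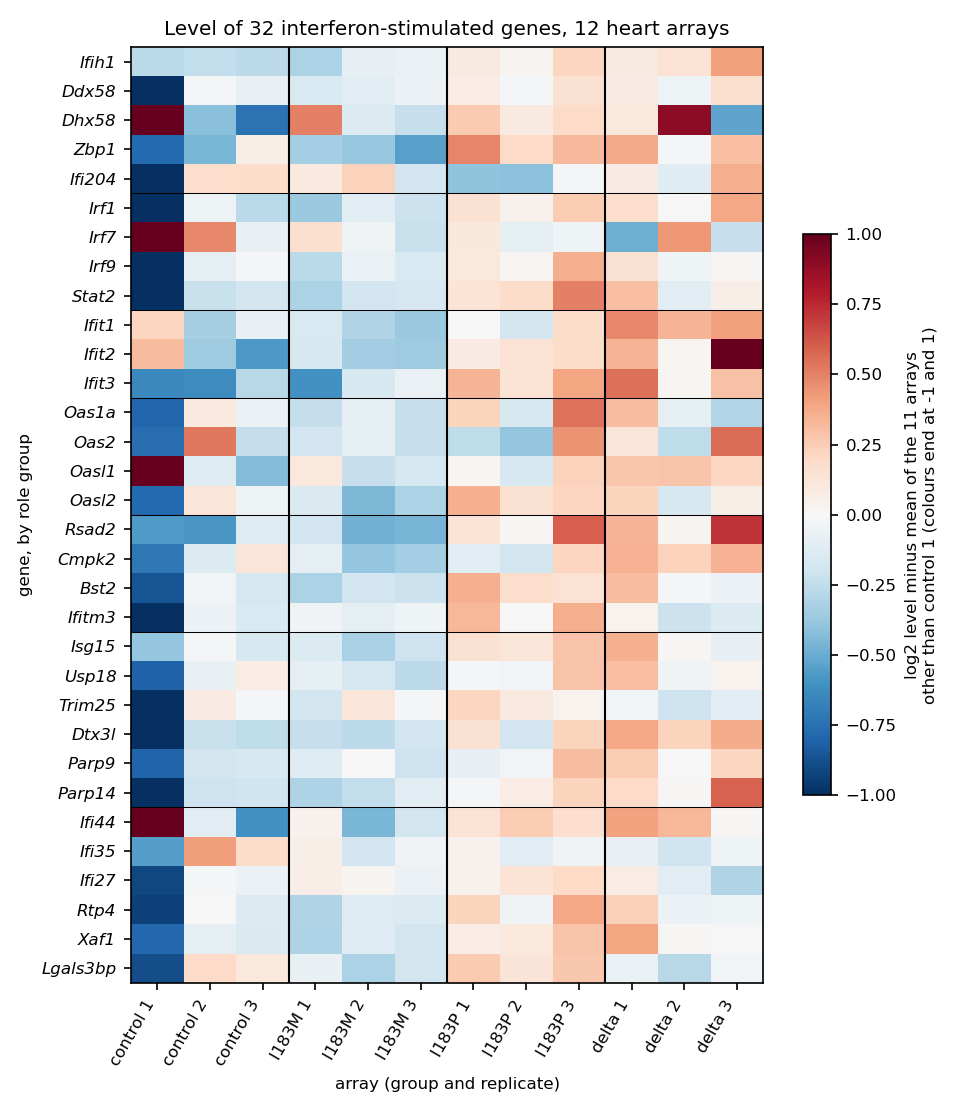
Rows are the 32 tested genes by role group and columns the 12 arrays. Colour gives the log2 level minus the mean of the gene over the 11 arrays other than control replicate 1. Most rows are blue in I183M and red in I183P and delta, and control replicate 1 reads lowest for 24 genes and highest for 4.

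Of the 5 sensors of foreign nucleic acid, 3 lay above I183M without overlap in both I183P and delta, as 2.19% of all features did. Ifih1 read -0.09, -0.07 and -0.08 on the control arrays, -0.14, 0.09 and 0.11 in I183M, 0.27, 0.21 and 0.39 in I183P and 0.26, 0.32 and 0.59 in delta. Ifih1, also called MDA5, detects long double-stranded RNA, and all I183P and delta arrays lay above all control and I183M arrays, by log2 folds over I183M of 0.27 ± 0.17 (SE) and 0.37 ± 0.17. Zbp1 read -2.17, -1.85 and -1.32 on the control arrays, -1.72, -1.77 and -1.92 in I183M, -0.90, -1.20 and -1.06 in I183P and -1.01, -1.41 and -1.08 in delta. Zbp1, a sensor of Z-form nucleic acid that can start necroptosis, had the largest I183P fold over I183M of the 32 tested genes, 0.75 (95% interval 0.21 to 1.29), and 0.64 in delta (0.10 to 1.18). Control replicate 3 reached -1.32, above delta replicate 2, so delta and control overlapped. Another, dimmer probe for Zbp1 gave a fold of the opposite sign in I183P against control, and the mean over both probes gave -0.01 there. That mean also brought the folds over I183M to 0.10 in both I183P and delta, so the place of Zbp1 among the 32 genes rests on the brighter probe. Ddx58 (RIG-I, a sensor of RNA with free triphosphate ends) differed from I183M by 0.18 in I183P and 0.17 in delta, without overlap in both.

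Among the same sensors, Dhx58 and Ifi204 did not follow. Dhx58 (LGP2, a regulator of Ifih1 and Ddx58) ranged from -3.61 on control replicate 3 to -0.43 on control replicate 1, and its groups overlapped in all 6 comparisons. Ifi204 read 1.37, 2.63 and 2.63 on the control arrays, 2.55, 2.68 and 2.25 in I183M, 2.05, 2.04 and 2.43 in I183P and 2.53, 2.33 and 2.81 in delta. Ifi204, of the family of interferon-inducible DNA sensors, was the single gene whose mean lay below that of I183M in I183P, by -0.32 on the log2 scale with overlapping groups. In delta it read 0.39 higher than in I183P. That difference was -0.02 with median centring, which lowers every fold of delta over I183P by the same amount.

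Of the 4 transcription factors, 3 lay above I183M without overlap in both I183P and delta (2.19% of all features), the exception being Irf7. Stat2 read -0.23, 0.81 and 0.85 on the control arrays, 0.72, 0.84 and 0.86 in I183M, 1.17, 1.22 and 1.54 in I183P and 1.33, 0.93 and 1.1 in delta. Stat2, the interferon-specific subunit of ISGF3, lay without overlap above both I183M and control in I183P and in delta, and its folds over I183M were 0.50 ± 0.29 (SE) and 0.31 ± 0.29. Irf1 read 1.82, 3.02 and 2.80 on the control arrays, 2.70, 2.96 and 2.85 in I183M, 3.23, 3.12 and 3.33 in I183P and 3.25, 3.08 and 3.46 in delta. Irf1, an early factor that interferon-gamma induces through its GAS element, lay above all control and I183M arrays on every I183P and delta array, by 0.39 and 0.43 over I183M. Irf9, which gives ISGF3 its DNA contact, lay 0.33 higher in I183P and 0.20 in delta than in I183M, all 6 arrays above every I183M array.

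Irf7, which amplifies type I interferon transcription, differed from the other factors. Irf7 read -0.18, -1.22 and -1.77 on the control arrays, -1.54, -1.73 and -1.92 in I183M, -1.59, -1.80 and -1.74 in I183P and -2.19, -1.27 and -1.93 in delta. Control replicate 1 was far above the other 11 arrays, which spanned -2.19 to -1.22 with all 4 groups overlapping. Its fold in I183M against control, -0.68 (limma adjusted p 0.877), had the smallest unadjusted p of the 32 genes in that comparison, and without control replicate 1 it was -0.24.

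The 3 IFIT genes, whose products bind viral RNA and block its translation, lie near each other on chromosome 19, with Ifit2 and Ifit3 as neighbours. Ifit3 read 0.02, 0.03 and 0.38 on the control arrays, 0.06, 0.50 and 0.60 in I183M, 1.00, 0.80 and 1.06 in I183P and 1.21, 0.68 and 0.96 in delta. Every I183P and delta array of Ifit3 lay above every control and I183M array, and its folds over control were 0.81 ± 0.23 (SE) in both I183P and delta, with limma adjusted p of 0.564 and 0.375. Ifit1 read -1.18, -1.72 and -1.47 on the control arrays, -1.54, -1.69 and -1.77 in I183M, -1.40, -1.58 and -1.21 in I183P and -0.91, -1.05 and -0.99 in delta. For Ifit1 the 3 delta arrays lay above all 9 others, 0.68 over I183M (95% interval 0.24 to 1.13) and 0.41 over I183P (-0.04 to 0.86), while I183P overlapped with I183M and control. With median centring the Ifit1 fold of delta over I183P was 0.0009, so that difference depends on the scaling. Ifit2 read -0.81, -1.48 and -1.69 on the control arrays, -1.28, -1.47 and -1.48 in I183M, -1.04, -0.98 and -0.94 in I183P and -0.78, -1.10 and -0.11 in delta. Ifit2 read 0.43 higher than I183M in I183P and 0.75 in delta without overlap in either, and delta replicate 3 alone was well above the other delta arrays.

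**Figure D3:**
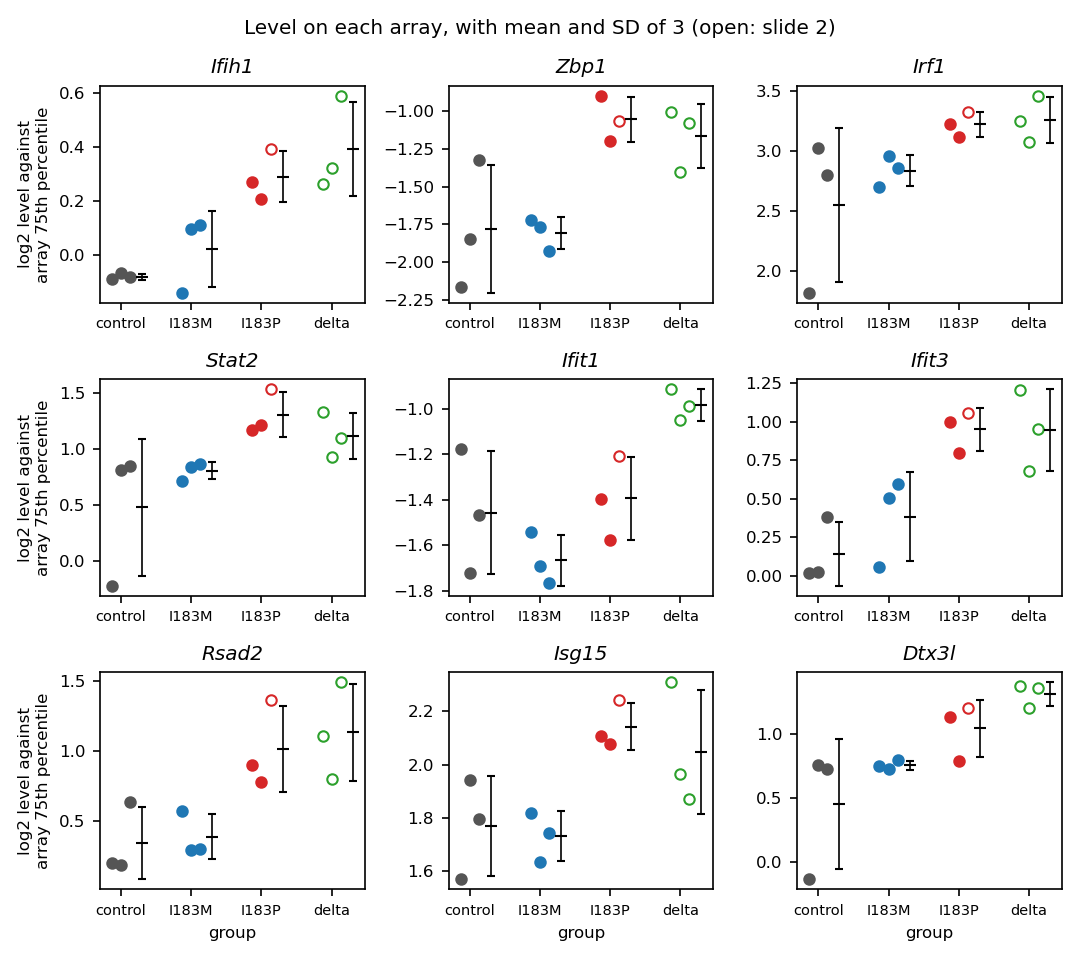
Level on each array (log2, relative to the array's 75th percentile) for 9 of the genes, by group, with the mean and SD of 3 arrays beside the points. Open circles are slide 2. For Ifih1, Irf1, Stat2 and Ifit3 all 6 I183P and delta arrays lie above all 6 control and I183M arrays, and for Ifit1 the 3 delta arrays lie above the other 9.

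The OAS genes, whose enzymes make short oligoadenylates that activate the ribonuclease RNase L, were read beside their catalytically different relatives Oasl1 and Oasl2, and 1 of these 4 tested genes lay above I183M without overlap in each of I183P (5.75% of all features) and delta (11.3%). Oas1a read 0.09, 0.98 and 0.82 on the control arrays, 0.65, 0.79 and 0.65 in I183M, 1.11, 0.73 and 1.43 in I183P and 1.20, 0.79 and 0.59 in delta. I183P replicate 3 and delta replicate 1 were the highest Oas1a arrays, and the groups overlapped in I183P and delta against I183M. With the slide as a block the delta difference from I183M, 0.16, turned to -0.35. Oasl2 read -0.38, 0.52 and 0.35 on the control arrays, 0.26, -0.05 and 0.08 in I183M, 0.75, 0.55 and 0.61 in I183P and 0.62, 0.23 and 0.46 in delta. All I183P arrays of Oasl2 lay above all control and I183M arrays, by 0.54 ± 0.25 (SE) over I183M, and delta replicate 2 lay among the I183M and control arrays. Oas2 and Oasl1 differed from I183M by 0.10 and 0.13 in I183P, and by 0.31 and 0.36 in delta.

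Among the other restriction factors, Rsad2 and Bst2 stood highest over I183M in I183P. Rsad2 read 0.20, 0.19 and 0.64 on the control arrays, 0.57, 0.29 and 0.30 in I183M, 0.90, 0.78 and 1.36 in I183P and 1.11, 0.80 and 1.49 in delta. Rsad2 (viperin, which makes a chain-terminating nucleotide) lay in every I183P and delta array above every control and I183M array, 0.63 over I183M in I183P (95% interval 0.06 to 1.20) and 0.75 in delta (0.17 to 1.32). Cmpk2, its neighbour on chromosome 12, a mitochondrial nucleotide kinase, read -1.17, -0.59 and -0.34 on the control arrays, -0.56, -0.84 and -0.79 in I183M, -0.57, -0.64 and -0.24 in I183P and -0.11, -0.22 and -0.11 in delta. Every delta array of Cmpk2 lay above all others, 0.58 over I183M, and I183P overlapped with control. Another Cmpk2 probe of nearly the same mean level (-0.76 against -0.52) read -0.25 in I183P against control, where the probe used read 0.22. The delta folds of that other probe are not given here. The Cmpk2 fold of delta over I183P turned to -0.07 with median centring. Bst2 (tetherin, which holds budding virions at the cell surface) lay 0.47 above I183M in I183P and 0.32 in delta, without overlap in both. Ifitm3 read 2.81, 4.05 and 3.96 on the control arrays, 4.07, 4.01 and 4.06 in I183M, 4.44, 4.11 and 4.47 in I183P and 4.14, 3.89 and 3.97 in delta. Ifitm3, which blocks virus entry at endosomes, lay highest in I183P, 0.29 over I183M without overlap, and delta lay within 0.05 of I183M.

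The ISG15 pathway holds Isg15, a ubiquitin-like protein attached to other proteins, and the enzymes that attach, remove or read such marks. Isg15 read 1.57, 1.94 and 1.80 on the control arrays, 1.82, 1.63 and 1.75 in I183M, 2.11, 2.08 and 2.24 in I183P and 2.31, 1.97 and 1.87 in delta. The I183P arrays of Isg15 lay above all control and I183M arrays, 0.41 ± 0.19 (SE) over I183M. Delta lay 0.32 over I183M without overlap, but delta replicate 3 was below control replicate 2, and delta against control turned from 0.28 to -0.04 with normexp and quantile scaling. The mean over both Isg15 probes gave 0.19 in I183P and 0.075 in delta over I183M, and -0.05 in I183P against control. Trim25, a ubiquitin ligase for RIG-I, overlapped with I183M in both groups, with folds of 0.14 in I183P and -0.09 in delta, and its delta arrays all lay below its I183P arrays. Usp18, which removes Isg15 and dampens the interferon receptor, lay 0.26 and 0.28 over I183M without overlap.

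Dtx3l, Parp9 and Parp14 are neighbours on chromosome 16. Dtx3l is a ubiquitin ligase that works with Parp9, and Parp14 is an ADP-ribosyltransferase. Dtx3l read -0.14, 0.76 and 0.73 on the control arrays, 0.75, 0.72 and 0.79 in I183M, 1.13, 0.79 and 1.20 in I183P and 1.37, 1.20 and 1.36 in delta. All delta arrays of Dtx3l lay above all I183M and control arrays, by 0.56 ± 0.26 (SE) over I183M, and I183P replicate 2 lay among the I183M arrays. A dimmer probe for Dtx3l read lower in I183P than in control, control replicate 1 included, by -0.83 against 0.59 for the probe used. Parp14 read 0.78, 1.81 and 1.81 on the control arrays, 1.71, 1.77 and 1.90 in I183M, 1.99, 2.08 and 2.24 in I183P and 2.21, 2.03 and 2.60 in delta. All I183P and delta arrays of Parp14 lay above all control and I183M arrays, by 0.31 and 0.49 over I183M. Parp9 differed from I183M by 0.17 in I183P, with overlap, and by 0.27 in delta.

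The remaining 6 induced genes have less defined antiviral roles. Ifi44 read 0.62, -1.15 and -1.65 on the control arrays, -1.0, -1.5 and -1.23 in I183M, -0.90, -0.79 and -0.88 in I183P and -0.64, -0.71 and -1.03 in delta. Control replicate 1 of Ifi44 was the highest array by over 1 log2 unit, so its fold in I183P against control, -0.13, became 0.55 without that array. Against I183M, Ifi44 read 0.39 higher in I183P, without overlap, and 0.45 in delta, with overlap. Lgals3bp read 2.59, 3.67 and 3.59 on the control arrays, 3.4, 3.16 and 3.29 in I183M, 3.74, 3.61 and 3.75 in I183P and 3.41, 3.20 and 3.45 in delta. Lgals3bp, a secreted glycoprotein that binds galectins, lay above I183M in I183P by 0.41 without overlap, and delta lay 0.34 below I183P, also without overlap. Xaf1, an antagonist of the apoptosis inhibitor XIAP, lay above I183M by 0.36 and 0.35, and Rtp4, a receptor transport protein, by 0.38 and 0.24. Ifi27 differed from I183M by 0.12 in I183P and -0.12 in delta, and Ifi35 by 0.02 (-0.01 with normexp and quantile scaling) and -0.06, all with overlapping groups.

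Counted over single genes, 15 of the 32 had all 6 I183P and delta arrays above all 3 I183M arrays, against 2.19% of all features. Without control replicate 1, the lowest array was an I183M array for 18 of the 32 genes and the highest a delta array for 18 and an I183P array for 12. Control then holds 2 of the 11 arrays, and the same counts over all features are not given here. These extremes are therefore a description only. In the fit without control replicate 1, 14 genes in I183P and 16 in delta lay higher than I183M at an unadjusted p under 0.05 (2.58% and 6.99% of features). None passed after adjustment, with smallest limma adjusted p of 0.499 and 0.135. Of the 8 genes with 2 tested probes, 5 had a dimmer probe of opposite sign in I183P against control, namely Cmpk2, Ddx58, Dtx3l, Isg15 and Zbp1. That comparison includes control replicate 1, on which dim genes went both ways. Dhx58 and Irf7 read far higher there than on the other arrays, while Zbp1 and Usp18 read lowest there. Whether that array sets the signs of the dimmer probes was not tested. The signs of the dimmer probes without that array are not given here. The 10 tested genes with ISRE letters had a median fold of 0.40 in I183P against I183M (range 0.18 to 0.63), the 13 with a window but no such letters 0.33 (0.02 to 0.54), and the 9 without a window 0.17 (-0.32 to 0.75). In delta against I183M the 3 medians were 0.32, 0.35 and 0.27, and no difference between these sets was tested.

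**Figure D4:**
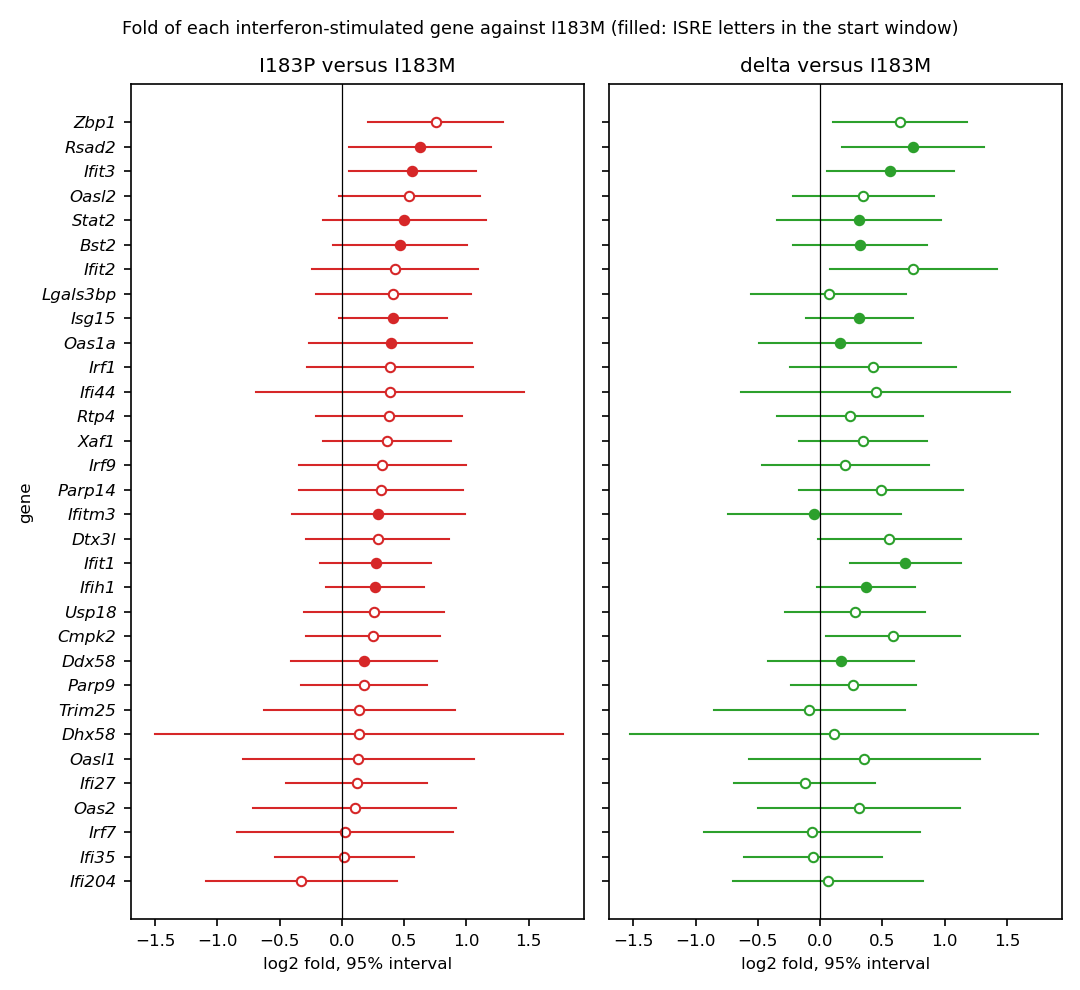
Log2 fold with its 95% interval for each of the 32 genes in I183P (left) and delta (right) against I183M, ordered by the left side. Filled points have ISRE letters in the RefSeq window. In I183P 31 of 32 points lie above 0, and the intervals of Zbp1, Rsad2 and Ifit3 lie wholly above 0 before adjustment over features.

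The genes upstream of the response were read for comparison. Beside every count without overlap against I183M given here and for the marker lists stand the shares of all features, 5.75% higher and 18.7% lower in I183P, and 11.3% higher and 6.25% lower in delta. Of 12 interferon genes, 8 were tested and 2 were well above background on all arrays, and Ifng was so on 4. Against I183M, 1 of the 8 read above 0 in I183P (35% of all features) and 8 in delta (47.6%), all with overlapping groups. With normexp and quantile scaling 5 of the 8 were above 0 in I183P (51.1% of all features) and 8 in delta (51.3%). The I183P median of these interferon genes went from -0.41 to 0.07, so their direction in I183P depends on the scaling. Of the 6 receptor subunits, 3 lay higher and 1 lower without overlap in I183P against I183M (median 0.11) and none in delta (median 0.00). Ifnar1, a subunit of the type I receptor, read 0.27 higher in I183P and 0.02 in delta. Of the 22 signalling genes, 4 lay higher and 2 lower in I183P (median -0.02) and 3 and 3 in delta (median 0.09). Tmem173 (STING) lay 0.42 and 0.34 above I183M, and Eif2ak2 (PKR) 0.42 above in I183P and -0.21 in delta. None of these genes passed the test.

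Genes of the interferon-gamma type, such as guanylate-binding proteins, immunity-related GTPases and immunoproteasome subunits, read higher in the same groups. Of 19 tested, 15 lay higher and 1 lower without overlap in I183P against I183M (5.75% and 18.7% of all features; median 0.40), and 12 lay higher in delta (11.3% of all features; median 0.37). No member of this list passed the limma test in any comparison, the smallest adjusted p being 0.258 in delta against control. Gbp5 read 0.74 ± 0.23 (SE) higher than I183M in I183P and 0.70 in delta. Psmb9, an immunoproteasome subunit, read 0.77 ± 0.22 and 0.42 higher.

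Markers of cell types that could carry these transcripts moved in part with the same groups, and their part in the result was not tested. Of 8 endothelial markers, 6 lay higher in I183P than in I183M without overlap (5.75% of all features) and 2 in delta (11.3%). Their summed level was 5.39 to 5.51 in I183M, 5.83 to 6.05 in I183P, 5.69 to 5.81 in delta and 5.39 to 5.5 on control replicates 2 and 3. Kdr and Cldn5, both endothelial, read 0.50 and 1.15 higher than I183M in I183P, while Pecam1 and Emcn, of the same list, differed by -0.12 and -0.05 with overlapping groups. Of 14 lymphocyte markers, 5 lay higher and 2 lower in I183P (5.75% and 18.7% of all features) and 8 higher in delta (11.3%). Their summed level was 3.19 to 3.23 in I183M, 3.22 to 3.39 in I183P, 3.46 to 3.56 in delta and 2.91 to 3.12 on control replicates 2 and 3, and 6 of the 14 were well above background on all arrays, with Cd8a and Klrb1c on 3.

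Of 13 tested macrophage and monocyte markers, 12 were well above background on all arrays. Without overlap, 1 lay higher in I183P against I183M (5.75% of all features) and none lower (18.7%), and 1 higher and 1 lower in delta (11.3% and 6.25%). The shares lying higher were close to those of all features. However, 11 of the 13 were above 0 in I183P (35% of all features), with a median of 0.10, and 9 in delta (47.6%), with a median of 0.05. Their summed level was 6.35 to 6.56 in I183M, 6.52 to 6.59 in I183P and 6.54 to 6.91 in delta. The marker that lay higher without overlap was Cx3cr1 in both comparisons, a chemokine receptor of resident macrophages, at 1.94 ± 0.38 (SE) in I183P and 1.36 in delta. Of 5 markers of plasmacytoid dendritic cells, the main producers of type I interferon, 2 lay higher in I183P (5.75% of all features) and 1 in delta (11.3%). Irf8 read 0.52 and 0.48 higher than I183M, whereas Klk1 differed by -0.89 and -0.35 and Ccr9 by -0.25 and -0.09, with overlapping groups. The summed level of this list overlapped between groups, at 6.78 to 6.85 in I183M, 6.80 to 7.13 in I183P and 6.59 to 7.23 in delta. That sum follows mainly Siglech, whose mean level was 6.57, against 3.76 for Tcf4, the next brightest. Fibroblast and cardiomyocyte markers had medians of -0.02 and -0.05 in I183P and of -0.08 and 0.00 in delta.

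**Figure D5:**
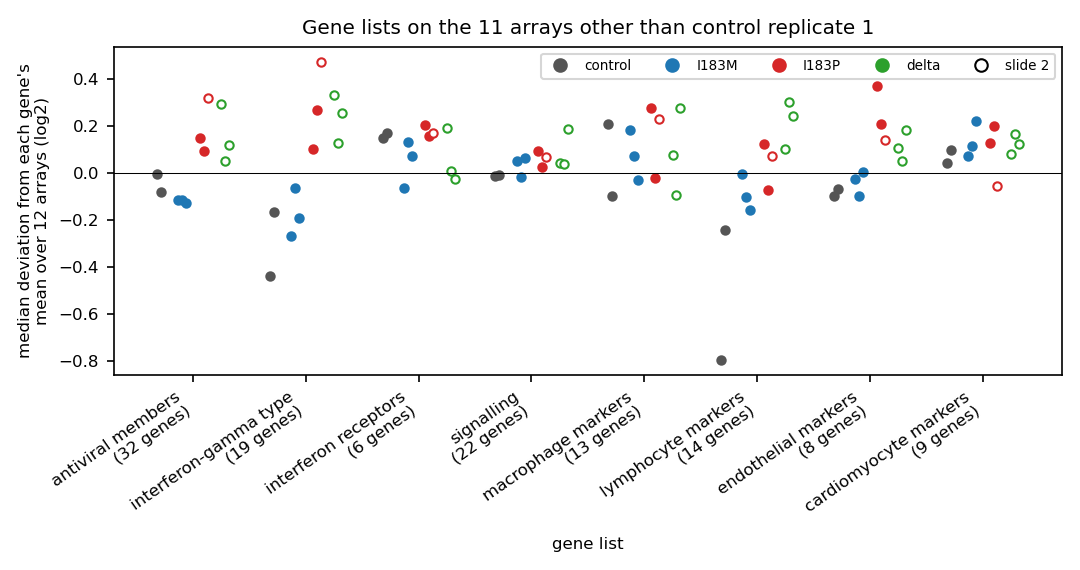
Median log2 deviation of each gene list on the 11 arrays other than control replicate 1, by group, with open circles for slide 2. The antiviral genes and the interferon-gamma type genes lie above 0 on all I183P and delta arrays and at or below 0 on all I183M and control arrays, the endothelial list lies above 0 on all I183P and delta arrays, and the signalling list spans -0.02 to 0.19.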

How the data were processed

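Arrays were scanned and quantified with Agilent Feature Extraction 11.0.1.1 (protocol GE1_1100_Jul11, probe layout on mm9), per the file headers, and the deposited intensity values are processed spot signals, background-corrected within each array. The submitters' processing notes also name limma, with no version. The authors' deposited series table holds log2 values of the same arrays, with array medians of 6.89 to 6.94 and Pearson correlations of 0.996 to 0.997 with normexp and quantile values computed here; its scaling is not given in the sources used here, and it served as an alternative only.

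Control spots and outlier flags were left out, log2 processed signals were set relative to the 75th percentile of each array, and spots of a probe were averaged. Of 55681 probes, 27229 were named by accession through a RefSeq table (GRCm38.p6, names and promoter windows only). The 96 probes with a missing value were left out, and 41569 probes well above background on at least 3 arrays were kept. Each gene was read from its brightest probe, which left 29778 features, 17238 with a symbol. Probe levels were not compared between genes, though summed levels add them.

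All 4 groups entered 1 limma fit (limma 3.58.1, R 4.3.3; lmFit and eBayes), with 6 comparisons and a Benjamini-Hochberg adjusted p under 0.05 over all features as the threshold; the code was tested on simulated data. The number of arrays limits the precision. Summed levels are log2 of summed linear levels, so they follow the brightest probes of a list more than its other members. The brightest were Kdr (endothelial), Cd4 (lymphocyte), Itgam (macrophage and monocyte) and Siglech (plasmacytoid dendritic cell). Members and lists were chosen with earlier results of these data known. Full values are given for the 4 genes with the smallest p in each comparison and the first tested gene of each role group, and, for other lists, up to 2 genes by smallest p in I183P against control; other genes printed in full were chosen after their values were seen. Alternatives covered background correction, centring, dim-probe filters, choice of probe, array weights, slide, replicate number, the deposited table and leaving out arrays.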

Additional observations from a re-analysis of the deposited data

How the results depend on the processing

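Across 27 alternative settings, 1535 of 1541 values of named genes kept their side of the threshold, and 151 of 154 counts of genes passing equalled the count of 0 reported. The exceptions came with limma array weights, which gave control replicate 1 a weight of 0.0260: 1 gene passed in I183P against I183M, 2 in I183P against control and 4 in delta against control, where 0.554%, 3.71% and 2.85% of all features passed. The smallest limma adjusted p of the 32 genes in the reported fit was 0.375, so these counts do not show that the folds were stable. In delta against control, Isg15 ranged from -0.16 to 0.66, Oas1a from -0.56 to 0.61 and Ifit3 from 0.57 to 1.19 over the alternatives. Centring on array medians, which shifts all features, moved the median fold to 0.86 (I183P against I183M), 1.24 (I183P against control), 0.46 (delta against I183M), -0.42 (delta against I183P) and 0.80 (delta against control). With the slide as a block, delta against I183M was 0.073, also without control replicate 1, where delta against control was 0.012. With normexp, quantile scaling and the slide block the medians were 0.21 (I183P against I183M), 0.081 (delta against I183M), -0.14 (delta against I183P) and 0.069 (delta against control). Leaving out each array in turn gave 0.21 to 0.36 for delta against I183M, 0.22 to 0.38 for I183P against I183M, 0.27 to 0.61 for I183P against control, 0.22 to 0.58 for delta against control, -0.06 to 0.04 for delta against I183P and -0.07 to 0.22 for I183M against control, and no gene passed. The settings without control replicate 1 that add normexp or the slide block were chosen after seeing the data. With the replicate number as a block, the medians stayed at 0.10, 0.45, 0.42, 0.30, 0.31 and -0.01 in the order I183M, I183P and delta against control, I183P and delta against I183M, and delta against I183P, and no gene passed. Same-numbered arrays correlated from -0.81 to 0.79, with 6 of 18 pairs above 0.1. Arrays of different number correlated from -0.85 to 0.87, with 15 of 36 pairs above 0.1. Whether same-numbered arrays share more than a number cannot be told from these values.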
